A study of Mus musculus with 5 samples.

Results

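Complement is a system of blood proteins, made largely by the liver, that marks particles for uptake, calls in inflammatory cells and opens membranes. The complement genes described here in liver mesenchyme are C3, C4b, C6, C7, Cfb, C1ra, C1s1 and Serping1, 8 of the 31053 genes counted in every library. They were listed by name, with no measured value in the rule, but with earlier results of these data known. Liver mesenchyme here means hepatic stellate cells, the vitamin A-storing cells of the space of Disse, and fibroblasts of the portal tract and vessels. All mice were male Rosa26mTmG;Col1a1-Cre animals on the C57BL/6J background, in which cells with a history of Cre driven from the Col1a1 promoter carry green fluorescence. DEN + WAD mice received diethyl nitrosamine (DEN, 10 mg/kg) at 2 weeks of age and, from 6 weeks of age, a liquid Western alcohol diet (WAD) with 3.5% v/v ethanol for 5 months. Control mice received saline and chow over the same period. Non-parenchymal cells were sorted on vitamin A autofluorescence (VitA) and on the green reporter (Col1a1), and RNA of single cells was counted as UMIs, the barcodes that mark single RNA molecules. The sorted libraries were 5 in number. DEN + WAD liver gave VitA+Col1a1+ cells, VitA-Col1a1+ cells and a fraction labelled VitA-Col1a1-, and chow liver gave VitA+Col1a1+ and VitA-Col1a1+ cells. Each group was 1 library, so no difference between groups had a replicate check and none was tested. How many mice went into a library was not given in the sources used here.

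Complement can be started in 3 ways that meet at C3. In the classical pathway, C1q bound to a target activates the proteases C1r and C1s (C1ra and C1s1 in the mouse), and C1s cuts C4 (C4b) and C2 to form an enzyme that cleaves C3. In the lectin pathway, collectins and ficolins with MASP proteases act on the same C4 and C2, and in the alternative pathway factor B (Cfb) joins deposited C3 to cleave more C3. C6 and C7 follow C5 into the membrane attack complex, and C1 inhibitor (Serping1) blocks C1r, C1s and the MASPs. Hepatocytes are the textbook source of plasma C3 and factor B, while stromal cells and macrophages are known to make several components locally.

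The 8 genes lie at 5 places in the mouse genome (GRCm38, GENCODE M21), all of them protein coding. C6 (chr15:4727175-4814967, plus strand) and C7 (chr15:4988762-5063740, minus strand) are neighbours 173794 bp apart. C4b (chr17:34728380-34743882) and Cfb (chr17:34856374-34862518) stand in the major histocompatibility complex, both on the minus strand, and Cfb ends 85 bp before C2. C3 (chr17:57203970-57228136, minus strand) is elsewhere on the same chromosome. C1ra (chr6:124512405-124523443, plus strand) and C1s1 (chr6:124530345-124542359, minus strand) are 6901 bp apart, and Serping1 (chr2:84765387-84775444, minus strand) stands alone. C1ra and C1s1 each have a near copy close by. The C1ra and C1rb transcripts were 98.0% identical over the 81.4% that aligned, and those of C1s1 and C1s2 were 96.0% identical over 89.7%. In the last 300 bases, nearest the 3' end that such libraries read, C1s1 and C1s2 aligned over 80.3% at 96.7% identity, while C1ra and C1rb aligned over 4.33%. Reads could be split or lost between such copies, so the level of C1s1, and less so that of C1ra, is uncertain. Scaled to 1000000 UMIs (CPM), C1rb was counted at 0.40 or less and C1s2 at 0.33 or less in any library. C4a was not analysed here.

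Of the 8 genes, 5 had a promoter in the RefSeq table of GRCm38.p6: C1ra, C1s1, C3, C6 and C7. The promoters of C3, C7 and C6 are shown because C3 and C7 were the members furthest higher in VitA- than VitA+ cells in both diets, and C6, next to C7 on its chromosome, was lower in both. Each sequence runs from 250 bases before the annotated start to 30 bases after it, 5′ to 3′ on the gene's own strand, and capitals mark the motif matches. The windows are chr17:57228107-57228386 (minus strand) for C3, chr15:5063744-5064023 (minus strand) for C7 and chr15:4726960-4727239 (plus strand) for C6.
C3: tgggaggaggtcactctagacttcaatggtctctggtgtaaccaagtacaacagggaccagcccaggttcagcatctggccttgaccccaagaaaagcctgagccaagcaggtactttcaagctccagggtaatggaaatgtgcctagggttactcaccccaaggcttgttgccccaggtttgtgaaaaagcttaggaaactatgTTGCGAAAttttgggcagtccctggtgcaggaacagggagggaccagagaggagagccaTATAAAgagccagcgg
C7: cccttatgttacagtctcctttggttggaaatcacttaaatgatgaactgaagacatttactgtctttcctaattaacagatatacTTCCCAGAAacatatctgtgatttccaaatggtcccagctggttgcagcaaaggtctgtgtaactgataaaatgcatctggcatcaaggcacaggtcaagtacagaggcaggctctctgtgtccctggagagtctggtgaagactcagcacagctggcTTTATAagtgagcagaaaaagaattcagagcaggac
C6: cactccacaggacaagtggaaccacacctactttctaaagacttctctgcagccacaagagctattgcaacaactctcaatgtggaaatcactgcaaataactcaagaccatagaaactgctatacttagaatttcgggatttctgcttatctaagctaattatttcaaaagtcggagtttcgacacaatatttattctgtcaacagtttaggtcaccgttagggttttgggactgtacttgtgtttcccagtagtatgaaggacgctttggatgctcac

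The motifs searched were 5, read on both strands over 250 bases before and 50 bases after each start: the C/EBP motif TTGCNNAA, the NF-kB motif, the interferon-stimulated response element, the gamma-activated site TTCNNNGAA and the TATA box TATAAA. C/EBP and STAT factors act in the acute phase response of the liver, NF-kB in inflammation and the interferon elements in interferon responses. The C3 window held the C/EBP match TTGCGAAA 45 bases upstream of the start and a TATAAA 14 bases after it. The C7 window held the gamma-activated site match TTCCCAGAA 164 bases upstream and TTTATA, the TATA motif on the other strand, 6 bases upstream. The C6 window held none of the 5 motifs. In the windows not shown, C1ra had a C/EBP match (TTATGCAA, other strand) 16 bases and a gamma-activated site match (TTCCCTGAA) 32 bases after the start, and 1 of the 2 C1s1 windows had a C/EBP match (TTAGGCAA, other strand) 242 bases upstream. Among all 32851 promoters of the table, 10.8% held the C/EBP motif, 0.411% the NF-kB motif, 3.44% the interferon-stimulated response element, 8.3% the gamma-activated site and 13.6% the TATA motif, so single matches are common by letters alone. GC content was 53.3% in the C3 window, 44.0% in C7 and 41.7% in C6, beside a median of 52.7% over all promoters, and the C7 window held 0 CpG dinucleotides where the median promoter held 7.

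The 5 libraries held 24007 barcodes. VitA+Col1a1+ DEN + WAD had 10481 cells and 149936344 UMIs, VitA-Col1a1+ DEN + WAD 2729 cells and 47633435 UMIs, and the matching chow libraries 259 cells with 6145748 UMIs and 668 cells with 14996899 UMIs. The library labelled VitA-Col1a1- had 9870 cells and 105670468 UMIs. Median depth ran from 9105.5 to 24077 UMIs per cell, and pairs of libraries shared at most 21 barcodes. The label of that last library and its RNA did not match: Col1a1 stood at 1062 CPM there, beside 304.1 and 958.1 in the Col1a1+ libraries from DEN + WAD liver and 99.42 and 1834 in those from chow. It is called the library labelled VitA-Col1a1- throughout, and no gate or diet value below uses it. Its Alb level was 2454 CPM, beside 17.25 to 174.3 in the other 4.

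The labels name hepatic stellate cells as the cell type of all 5 libraries. Mesenchymal cells were taken as barcodes with at least 20 UMIs per 10000 from Dcn, Col3a1 and Colec11 together. They made up 97.86% of VitA+Col1a1+ and 81.06% of VitA-Col1a1+ cells from DEN + WAD liver, 95.37% and 92.07% in chow, and 52.64% where the label read VitA-Col1a1-, 18527 cells in all. A mesenchymal cell with at least 1 UMI of Lrat, the retinol-esterifying enzyme of stellate cells, was called Lrat-positive. The summed stellate markers (Reln, Ecm1, Rgs5, Hgf, Ngfr, Des, Pth1r, Vipr1) stood at 17770 CPM in VitA+ and 8002 CPM in VitA- mesenchymal cells of DEN + WAD liver, and at 18580 and 2365 CPM in chow. The fibroblast list (Fbln2, Thy1, Gas6, Mgp, Clec3b, Dpt, Mfap4) went the other way, with 108.7 and 3584 CPM in DEN + WAD liver and 26.61 and 7793 CPM in chow. Contractile markers (Myh11, Acta2, Tagln, Cnn1, Actg2) went with the fibroblast list, at 852.2 CPM in VitA+ and 2604 CPM in VitA- mesenchymal cells of DEN + WAD liver and at 474.9 and 4493 CPM in chow. The gates therefore differed in all 3 lists. The part of the stellate and fibroblast lists in the gate values was examined only by the splits described below, and that of the contractile list was not tested. Hepatocyte markers summed to 1.852 to 35.29 CPM in mesenchymal cells of the 4 Col1a1+ libraries and to 1264 CPM in those of the library labelled VitA-Col1a1-, where macrophage markers stood at 341.6 CPM beside at most 3.255 CPM elsewhere. In that library 448 mesenchymal barcodes also passed the endothelial cut, 146 the macrophage cut and 47 the Alb cut.

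Levels per library are given as CPM over all its cells, with exact Poisson 95% intervals that cover counting error only. C3, the protein on which all the pathways meet, stood at 7.63 CPM (7.19 to 8.09) in VitA+ and 228.6 CPM (224.3 to 232.9) in VitA- cells of DEN + WAD liver. In chow liver it was 1.139 CPM in VitA+ cells, from 7 UMIs of which 1 lay in a mesenchymal cell, and 578.3 CPM (566.1 to 590.6) in VitA- cells. It was 191.6 CPM in the library labelled VitA-Col1a1-. Both VitA- libraries thus lay far above both VitA+ libraries. C7, the component that lets the attack complex enter a membrane, had the same order. Its level was 1.974 CPM (1.756 to 2.212) in VitA+ DEN + WAD cells, 1.79 CPM (0.894 to 3.20; 11 UMIs) in VitA+ chow, 62.71 CPM in VitA- DEN + WAD, 226.0 CPM in VitA- chow and 19.84 CPM in the library labelled VitA-Col1a1-. The VitA+ values of C7 overlapped within counting error.

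C4b, the C4 protein cut by C1s, was found in every library, with 127.7 and 169.4 CPM in VitA+ and 452.2 and 617.1 CPM in VitA- cells of DEN + WAD and chow liver, and 225.6 CPM in the library labelled VitA-Col1a1-. C6, which binds the first attack complex fragment and then C7, ran against its neighbour. It stood at 162.5 CPM (160.5 to 164.6) in VitA+ DEN + WAD and 147.9 CPM (138.4 to 157.8) in VitA+ chow, but at 44.09 and 27.87 CPM in the VitA- libraries and 84.54 CPM in the library labelled VitA-Col1a1-. Cfb, the alternative pathway protease, was highest in VitA+ chow, at 75.99 CPM (69.25 to 83.2). It was 28.54 CPM in VitA+ DEN + WAD, 17.09 CPM in VitA- DEN + WAD, 13.25 CPM in the library labelled VitA-Col1a1- and 7.802 CPM in VitA- chow.

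The classical proteases and their inhibitor were spread more evenly. C1ra ran from 101.4 CPM in the library labelled VitA-Col1a1- to 382.5 CPM in VitA- DEN + WAD, with 257.9 CPM in VitA+ DEN + WAD, 286.2 CPM in VitA- chow and 340.1 CPM in VitA+ chow between them. C1s1 ran from 144.6 CPM in the library labelled VitA-Col1a1- over 234.9 CPM in VitA+ DEN + WAD, 268.0 CPM (255.2 to 281.3) in VitA+ chow and 282.1 CPM (277.3 to 286.9) in VitA- DEN + WAD to 365.5 CPM in VitA- chow, and the middle values, 268.0 and 282.1 CPM, overlapped in their intervals. Serping1 was 1717 CPM in VitA+ DEN + WAD, 1633 CPM in VitA- DEN + WAD, 1333 CPM in VitA- chow, 1057 CPM in VitA+ chow and 948.9 CPM in the library labelled VitA-Col1a1-. These 3 genes spanned a few-fold at most, while C3 and C7 spanned more than 100-fold.

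**Figure D1:**
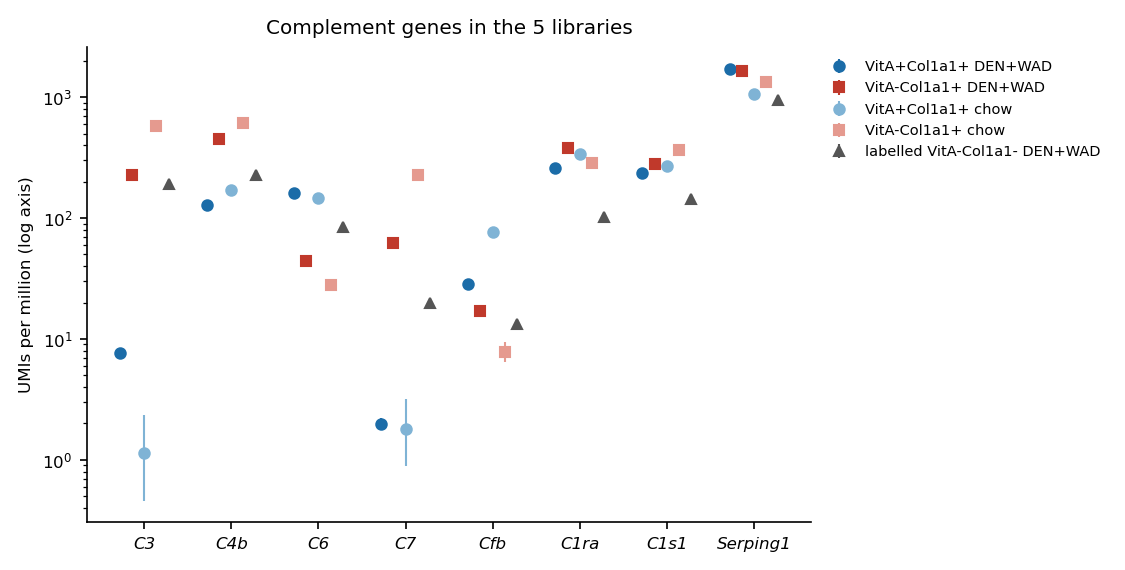
CPM (UMIs scaled to 1000000, log axis) of the 8 genes in each of the 5 libraries, one point a library with its exact 95% Poisson interval (counting error only). C3, C4b and C7 are higher in the VitA- Col1a1+ libraries, at 228.6 and 578.3 CPM for C3, C6 is higher in the VitA+ libraries, and Serping1 lies between 948.9 and 1717 CPM in all 5.

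The first comparison asked how VitA- cells differed from VitA+ cells of the same liver state. A gene was called higher or lower at a ratio of at least 2-fold, among genes with a mean level of at least 5 CPM over both libraries, and ratios carry exact conditional binomial 95% intervals of counting error. In DEN + WAD liver all 8 genes passed that filter. C3 (29.96-fold, 28.19 to 31.87), C7 (31.76-fold, 28.18 to 35.92) and C4b (3.54-fold, 3.47 to 3.61) were higher in VitA- cells, 3 of 8 where 8.64% of all 9905 genes were. C6 was 3.69-fold lower, 1 of 8 where 1.65% of all genes were. Cfb (ratio 0.599, 0.555 to 0.646), C1ra (1.483, 1.457 to 1.51), C1s1 (1.201, 1.177 to 1.225) and Serping1 (0.951, 0.943 to 0.959) stayed inside 2-fold. The median log2 ratio of the 8 genes was 0.42, beside 0.09 over all genes tested.

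In chow liver all 8 genes passed the filter and the same 3 genes were higher in VitA- cells, where 10.5% of all 10168 genes were. C3 was 507.7-fold higher (246.3 to 1263, on 7 UMIs in VitA+ cells). In mesenchymal cells alone it stood at 598.4 CPM in VitA- cells and at 0.168 CPM, 1 UMI, in VitA+ cells. C7 was 126.3-fold higher (70.47 to 253.2, on 11 UMIs) and C4b 3.643-fold (3.416 to 3.888). C6 was 5.31-fold lower and Cfb 9.74-fold lower, 2 of 8 where 5.37% of all genes were lower. C1s1 (1.364), Serping1 (1.261) and C1ra (0.842) stayed inside 2-fold. The median log2 ratio was 0.39 for the 8 genes and 0.07 over all genes. C6 and C7, neighbours on chromosome 15 that act one after the other in the attack complex, thus lay on opposite sides in both livers. C1ra was above 1 in DEN + WAD and below 1 in chow liver.

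**Figure D2:**
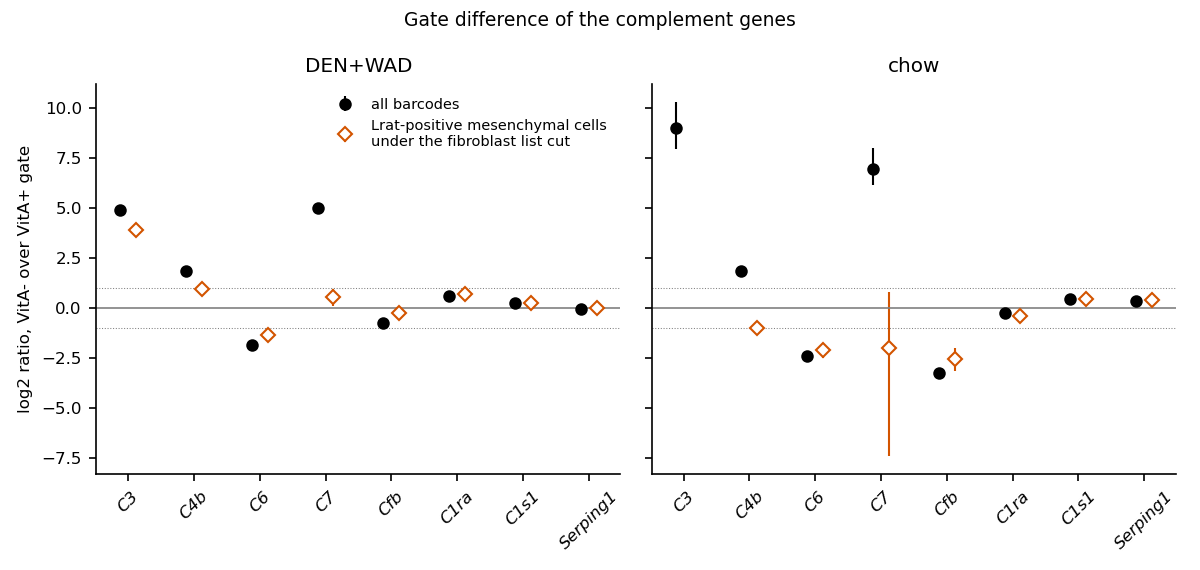
log2 ratio of CPM in VitA- over VitA+ cells in DEN + WAD and chow liver, for all barcodes (filled) and for Lrat-positive mesenchymal cells under the fibroblast list cut (open), with 95% counting intervals. Dotted lines mark 2-fold. C7 stands at 4.99 over all DEN + WAD barcodes, and its open diamond in that panel lies within 2-fold, while C6 lies below the lower dotted line in all 4 cases. The open C3 point of chow is not drawn because VitA+ cells held 0 C3 UMIs there.

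The second comparison set DEN + WAD against chow within a gate. It uses the same 4 libraries as the gate comparison, so the values are given side by side and not as a separate line of evidence. In VitA+ cells 6 of the 8 genes passed the filter, C3 and C7 being too low. Cfb was 2.66-fold lower in DEN + WAD (ratio 0.376, 0.341 to 0.414), 1 gene where 3.11% of all 9592 genes were lower, and 0 of the 6 were higher where 0.97% of all genes were. The other ratios were 1.625 for Serping1, 1.099 for C6, 0.876 for C1s1, 0.758 for C1ra and 0.754 for C4b. Below the filter, C3 had a ratio of 6.699 (3.241 to 16.7), and on the log2 scale it stood at 2.74 over all barcodes and at 5.29 in mesenchymal cells alone, where chow had 1 C3 UMI. Taken as a mean over cells in place of summed UMIs, C3 lay on the other side, lower in DEN + WAD. Over all barcodes C7 had a ratio of 1.103 (0.608 to 2.234). The median log2 ratio was -0.03 over all 8 genes, C3 and C7 below the filter included, and -0.07 over all genes that passed.

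In VitA- cells all 8 passed. Cfb was 2.19-fold higher in DEN + WAD (1.803 to 2.682), the side opposite to VitA+ cells, and 4.39% of all 10241 genes were higher. C3 was 2.53-fold lower and C7 3.6-fold lower, 2 of 8 where 4.94% of all genes were lower. C6 (1.582), C1ra (1.336), Serping1 (1.225), C1s1 (0.772) and C4b (0.733) stayed inside 2-fold. The median log2 ratio was -0.04 for the 8 genes and -0.03 over all genes. Cfb therefore differed 9.74-fold between the gates in chow but 1.67-fold in DEN + WAD liver, and the C3 and C7 ratios between the gates were likewise smaller in DEN + WAD liver, without a test of any of these differences.

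Next, the mesenchymal cells of each library were split by Lrat. In VitA- DEN + WAD liver the 364 Lrat-negative cells carried more C3, C7 and C4b than the 1848 Lrat-positive cells. C3 stood at 706.2 against 172.3 CPM (4.099-fold, 3.942 to 4.262), C7 at 221.6 against 45.98 CPM (4.82-fold, 4.48 to 5.18) and C4b at 1048 against 430.4 CPM (2.434-fold). The fibroblast list moved with this split, at 9600 CPM in Lrat-negative and 2464 CPM in Lrat-positive cells, and contractile markers stood at 3404 and 2455 CPM. C3, C7 and C4b made 3 of 8 genes where 4.63% of all 9854 genes were higher. C6 was 2.39-fold lower in Lrat-negative cells (23.72 against 56.71 CPM), 1 of 8 where 3.33% were lower. C1s1 (1.493), Serping1 (1.232), C1ra (1.11) and Cfb (0.58) stayed inside 2-fold, and the median log2 ratio was 0.44 for the 8 genes and -0.04 over all genes.

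The chow VitA- library gave other values, and other markers moved with Lrat in it. Its fibroblast list stood at 7932 CPM in Lrat-negative and 7760 CPM in Lrat-positive cells and its contractile markers at 8102 and 3631 CPM, and the part of these lists in the Lrat values was examined only by the fibroblast list split. C3 stood at 771.7 CPM in its 135 Lrat-negative and 557.0 CPM in its 480 Lrat-positive cells (1.385-fold), C4b differed 1.216-fold and C7 1.08-fold (0.992 to 1.174). None of the 8 genes was 2-fold higher in Lrat-negative cells, 0 of 8 where 2.01% of all 10005 genes were. C6 was 2.14-fold lower, 1 of 8 where 1.28% were. The median log2 ratio was -0.05 for the 8 genes and -0.03 over all genes. In the library labelled VitA-Col1a1-, whose 840 Lrat-negative cells had a median of 1458 UMIs, C3 (384.0 against 102.2 CPM, 3.756-fold), C7 (110.7 against 29.6 CPM, 3.742-fold) and C4b (2.112-fold) were higher, where 3.09% of 10178 genes were. C6 was 2.02-fold lower there, where 1.31% of genes were, and Serping1 had a ratio of 0.792. The medians were 0.003 for the 8 genes and -0.008 over all. Other lists moved with Lrat in this library too. In Lrat-negative and Lrat-positive cells the fibroblast list stood at 5270 and 1558 CPM, hepatocyte markers at 2185 and 1192 CPM and stellate markers at 2149 and 4993 CPM. The part of the hepatocyte and stellate lists in these Lrat values was not tested.

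VitA+ cells were nearly all Lrat-positive. In DEN + WAD liver the 113 Lrat-negative cells were shallow, with a median of 845 UMIs, so a missing Lrat UMI and a missing transcript cannot be told apart in them. They also differed from Lrat-positive cells in contractile markers (6865 against 836.6 CPM), the fibroblast list (1013 against 106.3 CPM) and stellate markers (4889 against 17810 CPM). The part of these lists in the values was not tested. Of the 6 genes that passed the filter, C4b was 2.011-fold higher, where 8.8% of all 9417 genes were. C6 (14 UMIs) and Cfb (5 UMIs) were lower, 2 genes where 12.7% of genes were, and the interval of Cfb reached 1.059. The median log2 ratio was -0.48 over all 8 genes, those below the filter included, and -0.08 over all genes that passed. VitA+ chow held 2 Lrat-negative cells and gave no value.

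A second split, by the fibroblast list at 20 UMIs per 10000, separated C3, C7 and C4b further than Lrat did in the VitA- libraries. Cells at or over this cut made up 702 of 2212 mesenchymal cells (31.7%) in VitA- DEN + WAD, 465 of 615 (75.6%) in VitA- chow, 71 (0.692%) in VitA+ DEN + WAD, 1 in VitA+ chow and 1006 (19.4%) in the library labelled VitA-Col1a1-. In VitA- DEN + WAD, C7 was 198.0 CPM in cells over the cut and 2.441 CPM below it (81.1-fold, 63.2 to 105.8), C3 603.0 and 57.82 CPM (10.43-fold, 9.87 to 11.03), and C4b 1028 and 241.1 CPM (4.264-fold). The C3 level under the cut rests on few cells. In the 1416 Lrat-positive cells there it was 59.54 CPM with and 8.696 CPM without the 10 cells holding most C3. Cells over the cut held 97.89% of the C7, 85.63% of the C3 and 70.9% of the C4b UMIs of that library's mesenchyme. They held 23.64% of C6 and 17.86% of Cfb UMIs. C6 was 33.49 CPM over and 61.85 CPM under the cut (1.85-fold lower), and Cfb 8.814 and 23.17 CPM (2.63-fold lower). Serping1, C1s1 and C1ra differed by 1.292, 1.447 and 1.154-fold.

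The other libraries gave the same side for C3, C4b and C7. In VitA- chow C3 was 745.6 CPM over and 24.94 CPM under the cut (29.89-fold, 23.71 to 38.24), C4b was 804.4 and 69.29 CPM (11.61-fold), and C7 was 301.2 CPM over the cut and 1 UMI under it. In the library labelled VitA-Col1a1- the ratios were 9.288 for C3, 5.144 for C4b and 29.78 for C7, and among the 71 cells of VitA+ DEN + WAD they were 71.46, 4.091 and 16.95. These last C3 and C7 values rest on few cells, as 10 of the 71 held 83.5% of the C3 and 92.5% of the 40 C7 UMIs. C6 was lower over the cut in VitA+ DEN + WAD (0.483) and the library labelled VitA-Col1a1- (0.775), and near 1 in VitA- chow (1.068, 0.836 to 1.379). Leaving out barcodes with any UMI of the mesothelial list (Msln, Upk3b, Upk1b, Lrrn4, Muc16, Wt1) left C3 16.97-fold and C7 107.8-fold higher over the cut in VitA- DEN + WAD, and moved C3 in VitA- chow to 219.0-fold on 9 UMIs under the cut. Mesothelial markers summed to 32.79 CPM in VitA- DEN + WAD and 16.77 CPM in VitA- chow mesenchyme, and to 6.282 CPM or less in VitA+.

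**Figure D3:**
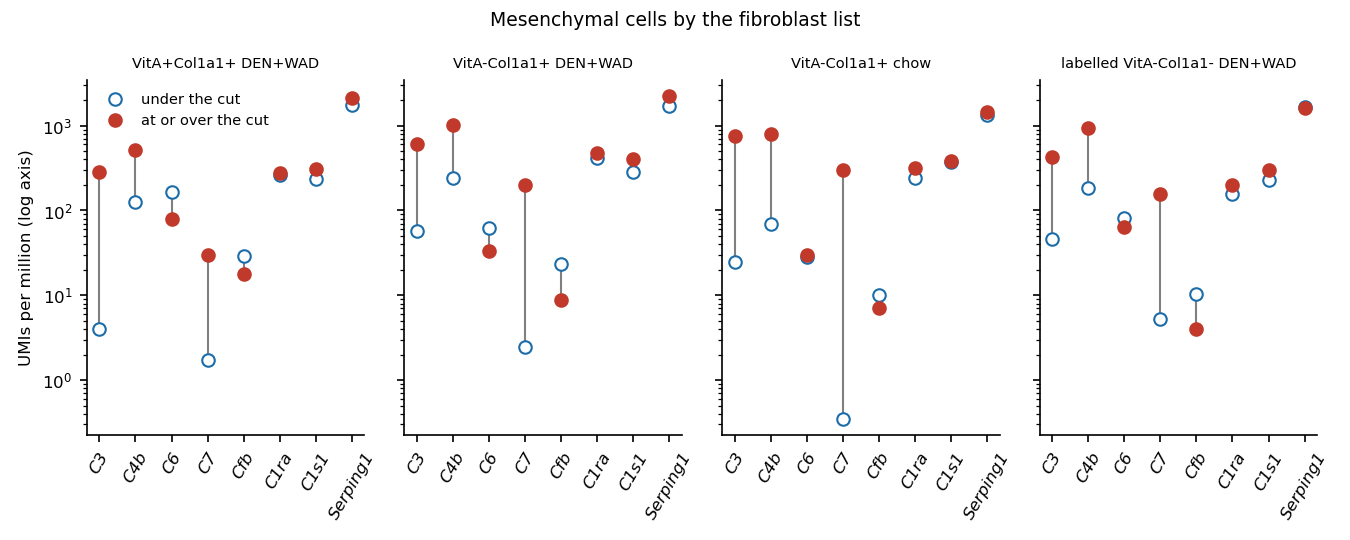
CPM (UMIs scaled to 1000000, log axis) of the 8 genes in mesenchymal cells at or over (filled) and under (open) 20 UMIs per 10000 of the fibroblast list, in the 4 libraries with at least 50 cells on each side. Lines join the values of a gene. The long lines are those of C3, C4b and C7, and Serping1 points nearly coincide.

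The gates were then compared again within one side of this cut, an alternative added after the data had been seen. Among Lrat-positive mesenchymal cells under the cut in DEN + WAD liver (1416 VitA- and 10080 VitA+ cells), C7 stood at 2.538 and 1.749 CPM, a ratio of 1.451 (1.083 to 1.918) in place of 31.76. C4b stood at 245.4 and 125.3 CPM (1.958-fold, 1.902 to 2.016). C6 remained lower in VitA- cells, 63.85 against 165.7 CPM (ratio 0.385, 0.366 to 0.406), C1ra was 1.621-fold higher, and Cfb had a ratio of 0.829. C3 was 59.54 CPM in VitA- and 4.024 CPM in VitA+ cells (14.79-fold), but 85.7% of those VitA- UMIs came from 10 of the 1416 cells, the top cell alone holding 324. Without the 10 cells C3 stood at 8.696 CPM, and at 2.91 CPM in VitA+ cells without their own 10. In the 10 VitA- cells stellate markers summed to 3275 CPM beside 11740 CPM in the other 1406, and cholangiocyte markers (Epcam, Krt19, Krt7, Sox9, Cldn7) to 42.73 CPM beside 3.24 CPM, with a UMI in 5 of the 10. Their part in the C3 value beyond these figures was not tested.

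In chow liver, the same cells numbered 110 in the VitA- and 244 in the VitA+ library. C6 (ratio 0.228, 0.178 to 0.289) and Cfb (0.171, 0.113 to 0.248) were lower in VitA- cells as over all barcodes. C4b lay on the other side, 86.14 against 175.4 CPM (ratio 0.491, 0.418 to 0.574). C7 had 1 UMI in VitA- and 11 in VitA+ cells. C3 had 7 and 0, a ratio of 6.37 against a floor of 3 UMIs, and its exact interval began at 3.93. The higher C4b and C7 of the chow VitA- gate was thus not found in Lrat-positive cells under the fibroblast list cut. Over the cut, DEN + WAD gates could be compared on 702 and 71 cells: C3 was 2.102-fold, C4b 2-fold and C7 6.693-fold (4.903 to 9.389) higher in VitA- cells, and C6 (0.419) and Cfb (0.497) lower. The C3 and C7 values again rest on few VitA+ cells, whose levels were 286.9 and 29.58 CPM with and 56.77 and 2.643 CPM without the 10 cells holding most of each gene.

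The diet comparison of the VitA- gate also changed within these cells. Over the cut (702 DEN + WAD and 465 chow cells) C3 had a ratio of 0.809 (0.785 to 0.833) and C7 of 0.657 (0.625 to 0.691) in DEN + WAD against chow, in place of 0.395 and 0.277 over all barcodes. C4b was 1.278-fold, C1ra 1.52-fold and Serping1 1.555-fold higher, and Cfb 1.239-fold (0.931 to 1.658). Under the cut, among Lrat-positive cells, C4b was 2.849-fold higher in DEN + WAD (245.4 against 86.14 CPM, 2.463 to 3.313), C6 1.824-fold, Cfb 1.797-fold and C1ra 1.624-fold. C3 was 18.46-fold higher on 7 chow UMIs, with the 10 cells above included. In VitA+ cells under the cut, Cfb kept a ratio of 0.37 (28.95 against 78.33 CPM) and Serping1 was 1.59-fold higher in DEN + WAD. C3 was found there as 589 UMIs in DEN + WAD and 0 in chow. Its ratio was 7.95 against the floor, and the exact interval began at 6.44.

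The library labelled VitA-Col1a1- allowed mesenchymal cells to be set beside hepatocyte-marked, endothelial-marked and macrophage-marked barcodes of one preparation. It held 378 Alb-rich barcodes (Alb at 100 or more per 10000 UMIs, not mesenchymal), with a median of 1605 UMIs. C3 was 1942 CPM in these and 122.6 CPM in the mesenchymal cells, 15.83-fold lower, and Cfb was 88.54 and 9.123 CPM, 9.71-fold lower, which made 2 of 8 genes where 14.1% of all 10297 genes were lower. Serping1 was 5.617-fold higher in mesenchymal cells (1655 against 294.7 CPM) and C1ra 3.968-fold higher (164.6 against 41.49 CPM). C7 had 2092 UMIs in mesenchymal cells and 0 in Alb-rich barcodes, a ratio of 53.3 against a floor of 3 UMIs, with an exact interval beginning at 43.3. These were 3 of 8 genes where 35.4% of all genes were higher. C1s1 (1.953), C6 (1.66) and C4b (0.943) stayed inside 2-fold, and the median log2 ratio was 0.85 for the 8 genes and 0.57 over all.

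Macrophage-marked barcodes (1195) held C6 at 206.5 CPM, above the 78.44 CPM of the mesenchymal cells, and C4b at 110.7 and C3 at 51.28 CPM. They held 1 UMI of C7, and 12.81, 3.551 and 12.7 CPM of C1ra, C1s1 and Serping1. The 2392 endothelial-marked barcodes held 36.5 CPM of C3, 34.97 of Serping1, 27.27 of C1ra and 14.08 of C4b, and 7.174 CPM or less of the others. C7 thus had few or no UMIs outside mesenchymal cells in this library, and C1ra, C1s1 and Serping1 were higher in mesenchymal cells than in any of the other 3. Hepatocyte RNA present in other barcodes was gauged by the ratio of each gene to Alb in Alb-rich barcodes times the Alb level elsewhere. So scaled, it came to 52.9% of the C3 and 34.9% of the Cfb level over the whole library labelled VitA-Col1a1-, to 15.6% and 9.57% in its mesenchymal cells, and to at most 2.89% for any of the 8 genes in mesenchymal cells of the 4 Col1a1+ libraries. Over all barcodes, as the gate and diet ratios were taken, it came to 32.4% of C3 in VitA+ DEN + WAD and 62.5% in VitA+ chow, and to 3.15% and 0.14% in the matching VitA- libraries.

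**Figure D4:**
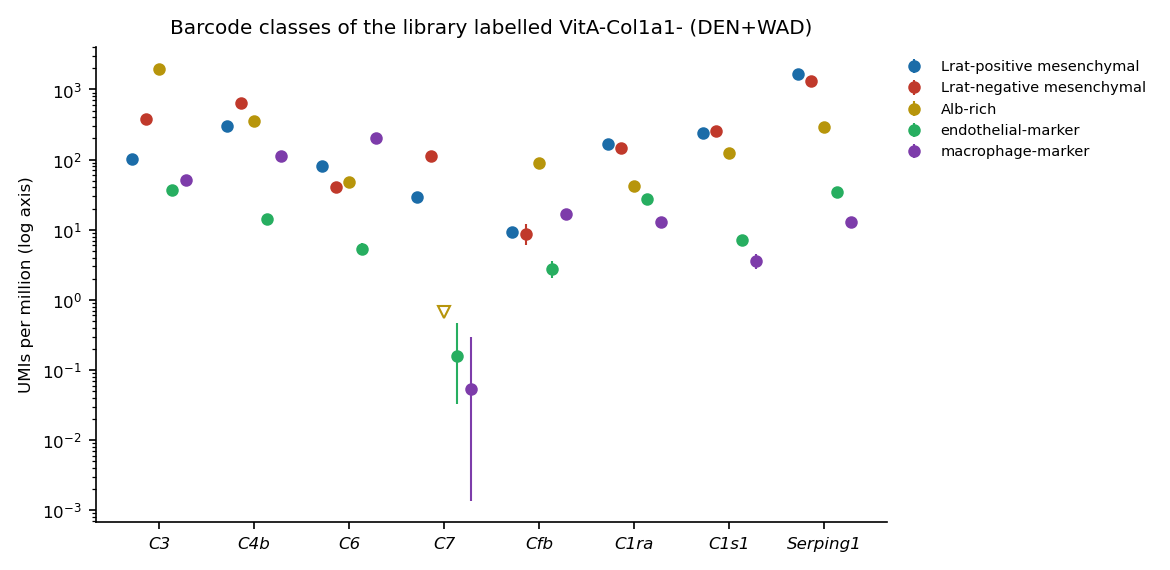
CPM (UMIs scaled to 1000000, log axis) of the 8 genes in 5 classes of barcodes of the library labelled VitA-Col1a1-, with 95% Poisson intervals. The open triangle marks the 3 UMI floor for C7 in Alb-rich barcodes, which held 0 UMIs. C3 and Cfb peak in Alb-rich barcodes, at 1942 and 88.54 CPM, and C6 in macrophage-marked barcodes, at 206.5 CPM.

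Within the mesenchyme of one library, cells were ranked by the summed level of an interferon list (among its genes Ifit1, Ifit3, Isg15, Irf7, Gbp2, Gbp3, Iigp1, Irf1, Psmb8, Bst2, Ifi47), and the highest and lowest 25% of cells were set against each other. In VitA- DEN + WAD, Cfb stood at 34.04 CPM in the highest and 8.636 CPM in the lowest cells (3.941-fold, 3.099 to 5.059) and C6 at 73.94 and 35.95 CPM (2.057-fold), while C3 (ratio 0.243) and C7 (0.257) were lower. Fibroblasts and stellate cells mix in that ranking. When it was repeated in Lrat-positive cells under the fibroblast list cut, 354 cells a side, Cfb stood at 42.05 and 11.92 CPM (3.527-fold, 2.709 to 4.638) and C6 at 87.0 and 46.56 CPM (1.868-fold, 1.614 to 2.166). Cfb was 1.786-fold higher in the same cells of the library labelled VitA-Col1a1- (1.338 to 2.401), 1.258-fold in VitA+ DEN + WAD (1.153 to 1.373) and 1.105-fold in VitA+ chow (0.836 to 1.463). C6 was 1.533-, 1.083- and 1.376-fold higher in these 3. C3 in these cells had a ratio of 3.543 in VitA- DEN + WAD, 1.348 in VitA+ DEN + WAD and 0.585 in the library labelled VitA-Col1a1-, so it had no single direction. The VitA- DEN + WAD values of C3 in these cells, here and for the next list, rest on few cells, since 10 of the 1416 held 85.7% of its UMIs.

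An inflammatory list (Saa3, Lcn2, Ccl2, Cxcl1, Nfkbia, Il6, Serpina3n, Icam1, Cebpb, Cebpd) was used in the same way. In VitA- DEN + WAD mesenchyme, C3 stood 3.272-fold, C7 2.292-fold and C4b 1.955-fold higher in the highest than the lowest 25% of cells. In the library labelled VitA-Col1a1- C4b stood at 3.312-fold, C7 at 2.654-fold and C6 at 2.242-fold, and in VitA- chow C3 at 2.54-fold. In VitA+ DEN + WAD the range was narrow, C4b standing at 1.233-fold and C3 at 0.804. Within Lrat-positive cells under the fibroblast list cut, the library labelled VitA-Col1a1- kept C4b at 4.133-fold (324.1 against 78.42 CPM), C7 at 3.764-fold, C6 at 2.162-fold and Cfb at 1.915-fold. The matching values in VitA- DEN + WAD were 1.186 for C4b, 1.433 for C6, 1.74 for Cfb and 2.811 for C3, and C3 was 0.378 in VitA+ DEN + WAD.

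**Figure D5:**
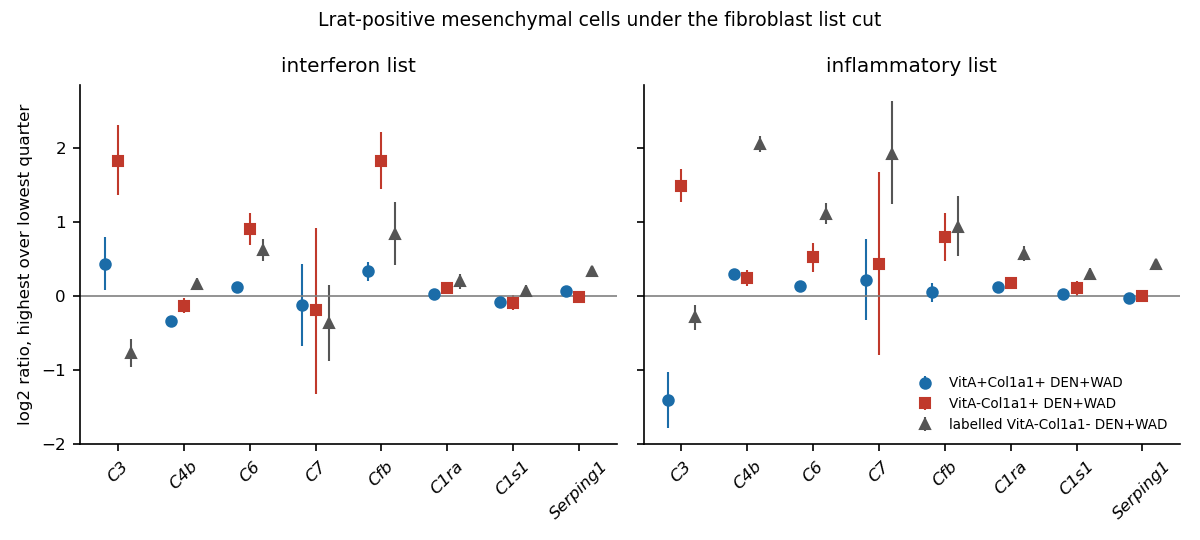
log2 ratio of the 8 genes between the 25% of cells with the highest and the lowest level of the interferon list (left) and the inflammatory list (right), among Lrat-positive mesenchymal cells under the fibroblast list cut in 3 DEN + WAD libraries, with 95% counting intervals. Cfb and C6 lie above 0 in all 3 libraries on the left, and C4b of the library labelled VitA-Col1a1- stands highest among the filled triangles on the right.

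Shares of cells with a UMI depend on depth, so each mesenchymal cell was thinned to 2000 UMIs, and the share in endothelial-marked barcodes is given as background. C3 was found in 0.702% of VitA+ DEN + WAD and 13.99% of VitA- DEN + WAD mesenchymal cells, in 0 of the 244 thinned VitA+ chow cells (a floor of 3 cells would be 1.23%), in 35.31% of VitA- chow cells and in 11.13% of those labelled VitA-Col1a1-. Without thinning, and over all mesenchymal cells, the C3 shares were 2.545%, 24.77%, 0.405%, 53.98% and 25.06%. The background shares of C3 were 1.142% in VitA- DEN + WAD and 6.096% in the library labelled VitA-Col1a1-, with median depths of 17575 and 13485 UMIs for mesenchymal and endothelial-marked cells in the former and 10920.5 and 7834.5 in the latter. C7 was found in 0.386%, 9.963%, 0%, 28.05% and 4.889% of thinned cells in the same order, with 0.457% as background in VitA- DEN + WAD. C6 was found in 26.24%, 9.592%, 25.82%, 4.455% and 14.27%, and Serping1 in 86.07% to 94.9%. C4b lay at 18.8% in VitA+ and 42.45% in VitA- DEN + WAD, and at 27.46% and 50.99% in chow. Endothelial-marked barcodes of VitA+ DEN + WAD, VitA- DEN + WAD and the library labelled VitA-Col1a1- gave background shares of 0.571%, 0.228% and 1.096% for C6, of 1.714%, 3.196% and 2.368% for C4b, and of 4.571%, 5.708% and 6.272% for Serping1. Chow libraries held fewer than 50 such barcodes and gave none.

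The genes also differed in how their UMIs were spread over cells. In VitA- DEN + WAD mesenchyme 50% of the C3 UMIs lay in 69 of 2212 cells (3.12%) and 50% of the C7 UMIs in 117 cells, while it took 624 cells (28.2%) for Serping1. In VitA+ DEN + WAD, 10 of 10257 cells held 37.1% of the C3 UMIs, and C3 stood at 6.6 CPM with and 4.162 CPM without them. C7 was less concentrated there, 10 cells holding 13.9% of its UMIs and its top cell having 7.

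The rest of the complement system was read from 5 lists of 45 genes, 44 of them measured, by the same rules. In the gate comparison of DEN + WAD liver 14 passed the filter, 5 were higher and 4 lower in VitA- cells, with a median log2 ratio of 0.18. Of all genes, 8.64% were higher and 1.65% lower. The lectin pathway split by gene. Masp1, its protease, stood at 1490 CPM in VitA+ and 609.4 CPM in VitA- cells (2.45-fold lower), the ficolin Fcna at 1909 and 668.5 CPM (2.86-fold lower) and the collectin Colec10 at 1668 and 383.0 CPM (4.35-fold lower). Colec11, which belongs to the mesenchymal rule, was 2.38-fold lower. The scavenger receptor collectin Colec12 was 14.64-fold higher (96.49 against 6.589 CPM). Among regulators, Vtn (3.862-fold), Cd55 (11.29-fold) and Cd59a (5.331-fold) were higher. The C5a receptor gene C5ar2 was 10.25-fold higher. C2, the neighbour of Cfb and partner of C4, was 161.2 and 168.6 CPM.

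In chow 14 of these genes passed, 2 were higher in VitA- cells (Colec12 22.4-fold, Vtn 8.482-fold) and 4 lower (Masp1 6.51-fold, Fcna 45.9-fold, Colec10 30.2-fold and Colec11 3.49-fold), with a median of -0.008. The shares of all genes were 10.5% higher and 5.37% lower. DEN + WAD against chow in VitA+ cells gave 13 that passed, 0 higher and 1 lower, Cd55 at 4.06-fold, beside 0.97% and 3.11% of all genes. In VitA- cells 14 passed, and Fcna (14.64-fold), Colec10 (4.999-fold), C5ar2 (2.389-fold) and Clu (2.146-fold) were higher and Colec12 2.08-fold lower. The shares of all genes there were 4.39% higher and 4.94% lower. Of the 7 alternative and terminal pathway genes beside the 8 described here, 0 passed the filter in any gate or diet comparison. Hc, the C5 gene, stood at 1.47 CPM or less in the Col1a1+ libraries and at 15.29 CPM in the library labelled VitA-Col1a1-. In that library 33 genes passed when mesenchymal cells were set against Alb-rich barcodes. Of these, 13 were higher, Cd55 at 3.825-fold among them, where 35.4% of all genes were. The 17 lower, where 14.1% of all genes were, included Hc, C8a, C8b, C8g and C9 of the terminal pathway. C1qa, a chain of C1q, stood at 0.126 CPM or less in the Col1a1+ libraries and at 944 CPM in the library labelled VitA-Col1a1-, and at 4828 CPM in its macrophage-marked barcodes.

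The Lrat split divided the lectin genes too. In VitA- DEN + WAD 13 of the other genes passed, Colec12 and Vtn being higher and Masp1, Fcna, Colec10, Colec11 and Clu lower in Lrat-negative cells. Of all genes, 4.63% were higher and 3.33% lower. In VitA- chow 13 passed, with Cd55 and Cd59a higher and Masp1, Fcna and Colec10 lower, beside 2.01% and 1.28% of all genes. In the library labelled VitA-Col1a1- 26 passed, 7 higher and 5 lower, beside 3.09% and 1.31% of all genes. In VitA+ DEN + WAD 12 passed, 1 higher and 6 lower, beside 8.8% and 12.7%. Masp1, Fcna and Colec10 were thus on the side of C6 in each of these 4 libraries.

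Likeness of pattern was described over 14 profiles, each a class of at least 50 cells in 1 library, by the Pearson correlation of log2(CPM + 1). These profiles share libraries and depth, so the values are descriptions only. Among 11447 genes, C7 was most like Jph2 (r = 0.988), Lgi2 (0.984) and Clec3b (0.984), the last of which is on the fibroblast list. C3 was most like Hopx (0.946), Phgdh (0.93) and Ces1d (0.923), C4b like Idh2 (0.968), Sdc2 (0.964) and Tmem42 (0.961), and C6 like Camk1d (0.944), Plekhj1 (0.938) and Ppfibp2 (0.936). Cfb had the loosest matches, Ppcdc (0.884), Nme4 (0.875) and Nudt19 (0.874). C1s1 was most like Aldh1a1 (0.995), Casc4 (0.992) and Snhg18 (0.989), Serping1 like Rarres2 (0.988) and Hsd11b1 (0.987), and C1ra like Rbbp7 (0.983), Mid1ip1 (0.977) and Ncald (0.977). Among the 8 genes themselves, C1s1 and Serping1 (0.978) and C1ra and Serping1 (0.94) were closest, C6 and Cfb stood at 0.799, C3 and C7 at 0.625, and C7 and Cfb at -0.077.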

How the data were processed

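Sorted liver cells of 5 groups were profiled by the authors with 10x Genomics 3' droplets, 1 library a group, and the labels name the v3.1 kit in one field and v2 in another. The authors counted UMIs on mm10 with Cell Ranger, version 3.1.0 per the file headers of 4 libraries and 6.1.2 per that of the library labelled VitA-Col1a1-. The deposited values are raw UMI counts per gene and barcode for 31053 genes, with no normalization, and the lowest barcode total was 500 UMIs. Every deposited barcode was used and no doublet caller was run; barcodes past more than 1 marker cut were counted instead.

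Groups came from the labels. UMIs were summed over cells of a library or class and scaled to 1000000 (CPM), with exact Poisson intervals for levels, exact conditional binomial intervals for ratios and exact Clopper-Pearson intervals for shares, at 95%, covering counting error only. With 1 library a group no test was run and cells were not used as replicates. Ratios were read over all genes with a mean of at least 5 CPM, 2-fold being the call. A level of 0 was given a floor of 3 UMIs. The classes took cuts of 20 marker UMIs per 10000, or 100 for Alb, and at least 50 cells. Cells were thinned at random (seed 7) to 2000 UMIs for shares, and cells with fewer UMIs were left out of these. The 8 genes are named in every comparison, other complement genes by list, and for likeness the 3 genes with the highest correlation, among genes at 10 CPM or more in any profile. The members, lists and cuts were chosen with earlier results of these data known, and the splits within one side of the fibroblast list cut, the other fibroblast list cuts and the barcode exclusions for shared barcodes, depth under 2000 UMIs and mesothelial UMIs, and the C3 levels without 10 cells, were added after seeing the data. Alternatives covered other cuts, other cell sets, TMM factors, no filter, means over cells and hepatocyte RNA taken off. A few genes of these lists and rankings are not reported here by name. Steps were tested on simulated data. Locations came from GENCODE M21 and promoter sequences from RefSeq (GRCm38.p6), matched by symbol. Software was Python 3.11.15, numpy 2.4.6, scipy 1.17.1, pandas 2.3.3, matplotlib 3.10.9 and, for TMM factors, edgeR 4.0.16 in R 4.3.3.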

Additional observations from a re-analysis of the deposited data

Results flagged for a closer look

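For 5 values, ratios lay on opposite sides of 1 in the 2 settings in which the same comparison could be made, each from 1 library a group, so that the difference was not tested in any of them. C1ra had a log2 ratio of VitA- over VitA+ cells of 0.57 in DEN + WAD and -0.25 in chow liver, 0.82 apart. Serping1 had -0.07 and 0.34 in the same comparison over all barcodes, -0.41 apart. In mesenchymal cells alone both livers lay on the same side. Serping1 stood there at 1908 CPM in VitA- and 1738 CPM in VitA+ cells of DEN + WAD liver, and at 1412 and 1093 CPM in chow. For DEN + WAD over chow, C3 stood at -1.34 in VitA- and 2.74 in VitA+ cells, -4.08 apart, where the VitA+ chow value rests on 7 UMIs. These opposite sides of C3 were not kept in every setting. In Lrat-positive cells under the fibroblast list cut C3 was higher in DEN + WAD in both gates, at 4.21 in VitA- and with 589 against 0 UMIs in VitA+ cells. A mean over cells turned the VitA+ value to the lower side. Cfb stood at 1.13 in VitA- and -1.41 in VitA+ cells, 2.54 apart. C1ra stood at 0.42 and -0.4, 0.82 apart. Both kinds of comparison use the same 4 libraries, so the C1ra values are one difference seen from each side.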

How the results depend on the processing

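Values here are log2 ratios unless counts are named. Of the alternative counts of members 2-fold apart, 124 stayed within 1.5 times the reported count and 20 did not. Only for the alternative with no filter was the share of all genes also counted, so the other counts describe the members alone. The other alternative values were ratios and cell shares of single genes and shares of all genes. Of these, 491 stayed within counting error, or within 1.5 times for shares of all genes, and 261 differed by more. A further 21 were ratios that changed sign where the reported interval excluded 1. Sign changes of ratios whose interval held 1 are among the 491 and 261. No paired analysis was possible because each group holds 1 library, and for the same reason no library could be left out.

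Among Lrat-positive cells under the fibroblast list cut, the 3 genes higher in VitA- cells became 1 in DEN + WAD (C3) and 0 in chow, where C4b turned to -1.03 and C7 to -2.01. For DEN + WAD over chow in VitA- cells, these cells gave 2 genes higher and 0 lower, with C3 at 4.21 and C4b at 1.51. C7 stood at 2.46 on 1 chow UMI, below the filter. Cells over the cut gave 0 higher and 0 lower, with C4b at 0.354 and C1s1 at 0.077. Mesenchymal cells alone gave Serping1 0.13 for the gates in DEN + WAD. In VitA+ cells, no filter gave 1 gene higher in DEN + WAD (C3), while a mean over cells put C3 at -0.36.

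For Lrat in VitA+ DEN + WAD, members higher became 0 with a mesenchymal cut of 10 or without the deepest 5% of barcodes and 2 with Lrat-positive set at 2 UMIs. Members lower became 1 with a cut of 40 or with Lrat at 2 UMIs, and 0 with Lrat read after thinning. Lrat at 2 UMIs gave 2 lower in VitA- DEN + WAD. In VitA- chow thinning gave 1 higher and 0 lower, and a mean over cells 0 lower. In the library labelled VitA-Col1a1-, C6 was no longer 2-fold lower (0 lower) after thinning, by a mean over cells or without the deepest barcodes. C1ra was -0.001 by a mean over cells in VitA- DEN + WAD, and Serping1 in VitA- chow 0.006 with Lrat at 2 UMIs and 0.089 after thinning. An Alb cut of 50 gave C4b 0.051 against Alb-rich barcodes.

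Within Lrat-positive cells under the cut, interferon ratios turned for C3 (0.43 in VitA+ and 1.82 in VitA- DEN + WAD) and, in the library labelled VitA-Col1a1-, for C4b (0.16) and C1s1 (0.069). Inflammatory ratios turned for Serping1 (-0.001, VitA- DEN + WAD) and C3 (-0.29, library labelled VitA-Col1a1-). Fibroblast list cuts of 10 and 40 gave Serping1 -0.052 in VitA- chow and 0.005 in the library labelled VitA-Col1a1-. The depth of VitA+ chow, 259 cells, limits every ratio of C3 and C7 against it. The causes of these changes were not tested.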

Other observations

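Barcodes outside all marker classes also carried C3. In the library labelled VitA-Col1a1-, 48 barcodes over the cut of the cholangiocyte list held C3 at 991.5 CPM (911 to 1077), and 14 such barcodes of VitA+ DEN + WAD held 314.4 CPM and 11 of VitA- DEN + WAD 207.8 CPM. Cholangiocytes are the lining cells of the bile ducts. Under that cut, 516 barcodes outside the classes held C3 at 598.8 CPM in the library labelled VitA-Col1a1-, and 48 held it at 1051 CPM in VitA- DEN + WAD. In the former library the 10 Lrat-positive mesenchymal cells under the fibroblast list cut with the most C3, each with at least 20 UMIs of it, carried hepatocyte markers at 84780 CPM beside 546.4 CPM in the other 3570 cells, and stellate markers at 1362 CPM beside 5692 CPM.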
